A study of Homo sapiens with 2 samples.

Results

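The genes of endoplasmic reticulum (ER) translocation and the early secretory pathway were compared between an immunoprecipitation (IP) and its input in the hepatocellular carcinoma line Huh-7. Members were taken from the gene table by symbol: the SEC, SSR, SPCS, SRP and TMED families, the 2 SRP receptor genes and 7 oligosaccharyltransferase genes. Of 70 symbols matched, 11 ended as pseudogene symbols do and were left out, which gave 59 members among 25556 listed genes. The study holds 2 libraries, 1 IP and 1 input, both from wild-type cells without treatment. The IP took 90% of the lysate and the input 10%. In RNA immunoprecipitation sequencing, RNA that comes down with an antibody target is sequenced beside the RNA of the lysate. The design text gives SRSF7, a serine/arginine-rich splicing factor, as the target, and the treatment label of the IP reads SPSF7, while the sample protocol speaks of poly(A) selection and an antibody to YTHDF2, an m6A reader. Which of them was precipitated is not settled by the files, and no control antibody library was used here.

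Proteins bound for secretion or for membranes enter the ER while they are made. The signal recognition particle (SRP) binds the signal peptide on the ribosome and docks at its receptor, the Sec61 channel takes in the chain, signal peptidase cuts it and oligosaccharyltransferase (OST) adds sugar chains to it. COPII coats then carry the cargo from ER exit sites towards the Golgi, with p24 (TMED) proteins among the cargo receptors. Liver cells secrete most plasma proteins by this route.

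Gene reads numbered 5897293 in the IP and 2782045 in the input, and the median measured member had 289.5 and 180.0 of them. Levels are RPKM, gene reads scaled by merged exon length and by the library's gene reads. All 10 hepatocyte markers looked up were listed, with summed levels of 5886 RPKM in the IP and 6836 RPKM in the input. Of the blood and stromal markers listed, none was at 0 in both libraries: the 6 erythroid genes summed to 698 and 1057 RPKM in IP and input, the 8 immune genes to 89.0 and 159 RPKM, the 4 endothelial genes to 2.77 and 4.29 RPKM and the 4 fibroblast genes to 2.60 and 2.42 RPKM. HBB (467 RPKM in the IP and 738 RPKM in the input) and LYZ (70.2 and 133 RPKM) were the highest of the erythroid and immune lists, MS4A1 was at 0 in the IP and CDH5 in the input, and the part of such RNA in the results was not tested. With 1 library a group no difference has a replicate check, and no p-value was computed. Ratios are IP over input RPKM with an exact 95% interval from the reads, which covers counting error only. Of genes with 1 to 10 reads, 78.5% in the IP and 78.1% in the input had an even count, as counting both mates of a pair gives, so that these intervals are likely too narrow; where named, they were also taken with the reads halved. The libraries come from bulk lysate, in which fewer cells holding an RNA and less of it per cell cannot be told apart.

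Measured members of this pathway sat lower in the IP than the middle of all genes, with SEC61G of the translocon and OSTC of OST lowest, and SEC16A and SEC24C of ER exit highest. Of the 59 members, 52 averaged 1 RPKM or more over the libraries. Their median log2((IP + 1)/(input + 1)) on RPKM was -0.18 (order-statistic interval over genes -0.36 to 0.01), beside 0.14 for all 14057 genes past the same limit. That interval treats genes as if they were independent and holds no spread between libraries, so it tests no difference. On the same log2 scale 8 members were at least 2-fold lower in the IP, 15.4% of the 52 against 8.25% of all genes, and 2 members were at least 2-fold higher, 3.85% against 11.3% of all genes. Among protein-coding genes alone, the class of all members, 3.90% were lower and 8.06% higher. The counting interval lay wholly below 1 for 24 members, 46.2% against 18.6% of all genes and 20.5% of protein-coding genes. It lay wholly above 1 for 13, 25.0% against 31.4% of all and 37.9% of protein-coding genes, and held 1 for the other 15. Such shares also depend on depth, since more reads give narrower intervals. Measured members had medians of 289.5 IP and 180.0 input reads, and all listed genes 20 and 8. Directions against 1 depend on the scaling: with the libraries scaled to protein-coding reads the medians were -0.55 for members and -0.17 for all genes, and scaled to the same RPKM sum 1.004 and 1.21, with members below all genes each time. Higher genes made up 57.9% of all 2-fold calls as deposited, 29.5% and 94.98% under these scalings and 44.6% after centring on the median of all genes. The 8 lower members were SEC61G, OSTC, SEC11A, SEC11C, SRP9, TMED7, TMED5 and DAD1, and the 2 higher ones were SEC16A and SEC24C. SEC61A2, SEC31B, SEC22A, SEC14L2, SEC14L4, SEC14L5 and TMED6 were below the limit, with 0 to 24 reads per library. SEC16B, at 1.52 RPKM in the IP and 0.975 RPKM in the input, passed only through the IP.

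**Figure D1:**
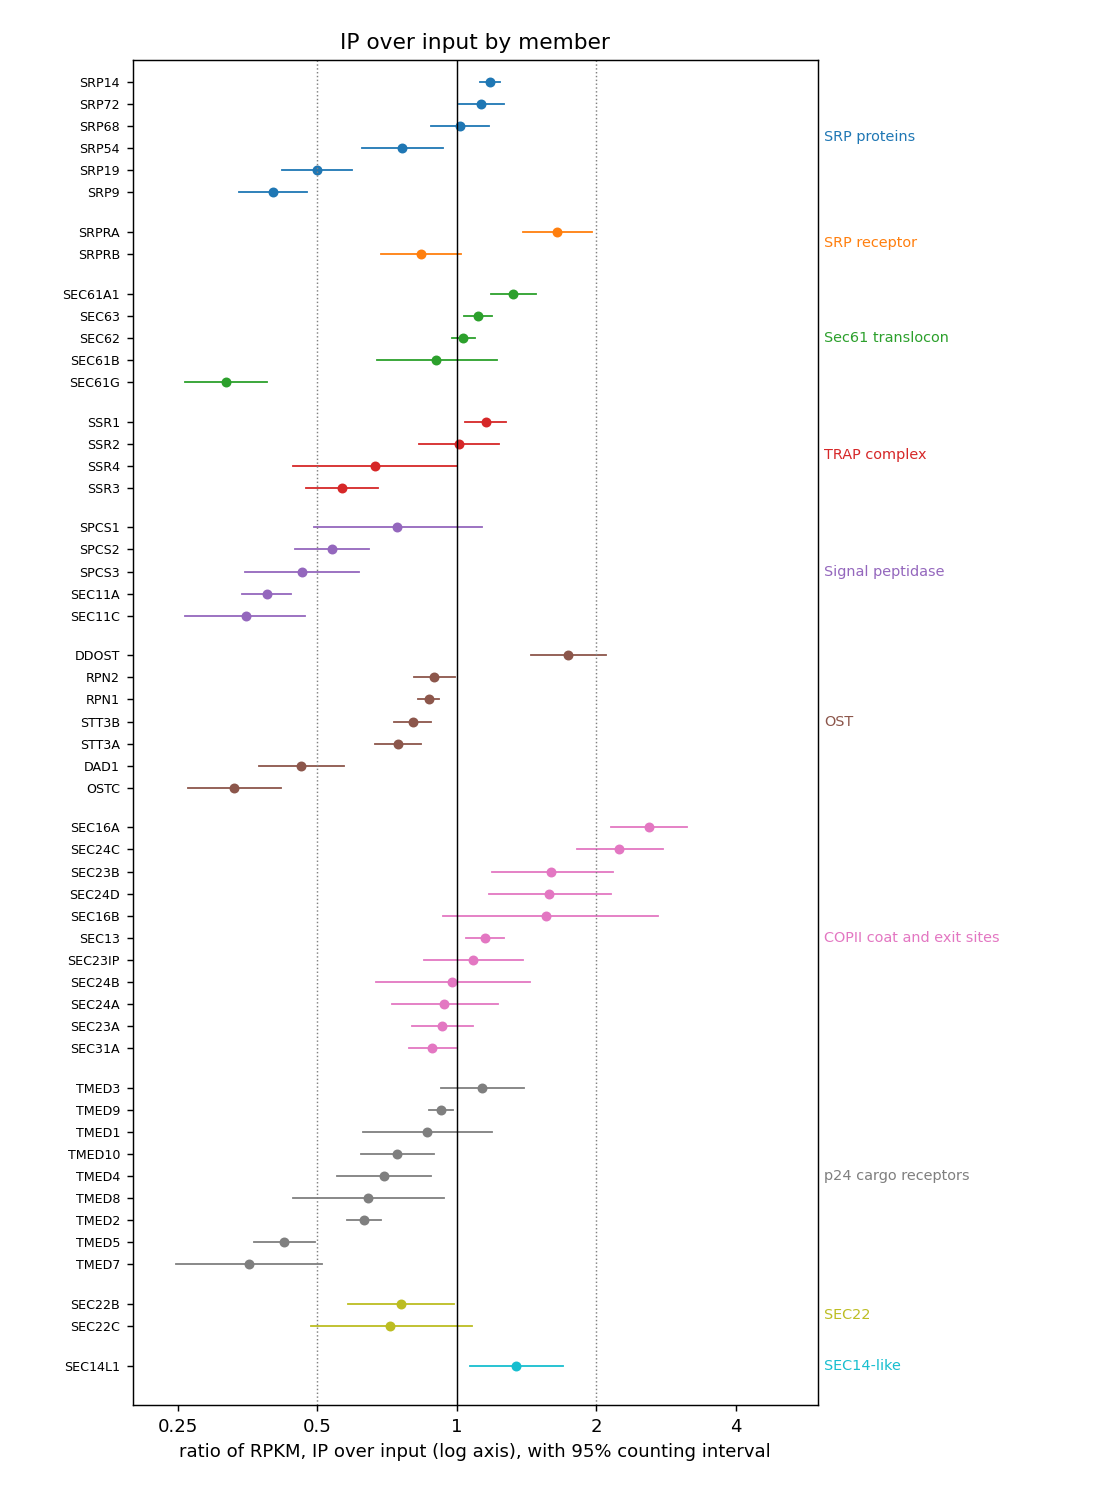
Ratio of RPKM, IP over input, on a log axis for the 52 measured members, grouped and coloured by complex. Points are ratios, bars the 95% counting intervals (1 library a group), the solid line is at 1 and the dotted lines at 0.5 and 2; the COPII panel reaches furthest right, with SEC16A at 2.59, and signal peptidase has no member above 1.

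A DNA element of the unfolded protein response was looked for in the promoters, a feature that the choice by symbol does not fix. The RefSeq table (GRCh38.p14) held windows for 52 of the 59 members, from 250 bases before to 50 bases after each annotated start. Of 7 motifs searched on both strands, the element bound by the transcription factor XBP1 (UPRE, TGACGTGG) was found in 8 of these 52 genes, 15.4%, and not in the other 44. It was in 0.927% of all 27305 genes in the table and in 1.21% of the 8421 that averaged 1 RPKM or more in these libraries. By window this was 8 of 72 member windows, 11.1%, against 0.729% of all windows. The stress element ERSE (CCAAT and CCACG with 9 bases between), a relaxed form of it (CCANG in place of CCACG) and ERSE-II (ATTGG and CCACG with 1 base between) were in 0 member windows and in 0.0769%, 0.370% and 0.0541% of all windows. TGACGT, which the UPRE contains, was in 26.9% of member genes and 14.4% of the 8421 measured genes, CCAAT, which ERSE contains, in 48.1% and 44.0%, and CGCG in 84.6% and 84.5%. Against all windows of the table these motifs were in 20.8%, 37.5% and 77.8% of member windows and in 7.98%, 34.6% and 49.9% of all. The UPRE genes were SRP19, SSR3, SSR4, SEC62, SEC23A, SEC24A, SEC16A and SEC16B. Shown are the 250 bases before the start for 1 gene each of SRP, the translocon and the COPII coat, 5′ to 3′ on the gene's strand, with the UPRE in capitals (for SRP19 and SEC62 it lies on the opposite strand and reads as its reverse complement). The windows are chr5:112861037-112861286 for SRP19, chr3:169966557-169966806 for SEC62 and chr5:134648535-134648784 for SEC24A, all on the plus strand.
SRP19: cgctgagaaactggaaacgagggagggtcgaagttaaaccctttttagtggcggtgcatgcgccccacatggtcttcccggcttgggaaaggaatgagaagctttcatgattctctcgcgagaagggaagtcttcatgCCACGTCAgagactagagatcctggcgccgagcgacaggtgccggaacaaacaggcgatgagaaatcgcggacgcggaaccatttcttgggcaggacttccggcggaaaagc
SEC62: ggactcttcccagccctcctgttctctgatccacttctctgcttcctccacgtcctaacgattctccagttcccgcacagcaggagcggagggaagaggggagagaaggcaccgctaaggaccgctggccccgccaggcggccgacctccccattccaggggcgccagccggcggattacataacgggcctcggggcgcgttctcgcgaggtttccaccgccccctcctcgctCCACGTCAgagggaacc
SEC24A: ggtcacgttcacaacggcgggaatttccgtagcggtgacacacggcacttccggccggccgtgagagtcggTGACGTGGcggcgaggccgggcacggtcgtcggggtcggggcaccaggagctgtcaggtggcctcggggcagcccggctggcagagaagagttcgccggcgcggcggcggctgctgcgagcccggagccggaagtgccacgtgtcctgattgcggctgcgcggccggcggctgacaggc
The element ended 105 bases before the start in SRP19, 10 bases before it in SEC62 and 172 bases before it in SEC24A. The 8 genes had log2 ratios from -0.86 (SRP19) to 1.21 (SEC16A) with a median of -0.08, and the other 37 measured members with a window ran from -1.59 to 1.06 with a median of -0.20. The ranges overlap, and the lowest members are among the genes without the element.

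The protein genes of SRP split within one of its heterodimers and not within the other. SRP14 and SRP9 form the heterodimer that holds the Alu end of the particle and slows translation. SRP14 (chromosome 15, positions 40035690 to 40039181) had 457 RPKM in the IP against 388 RPKM in the input, the highest level of all members in both libraries, and a ratio of 1.18 (1.12 to 1.24). SRP9 (chromosome 1) had 19.8 RPKM in the IP against 49.2 RPKM in the input, a ratio of 0.402 (0.339 to 0.476). As deposited, the intervals of these partners lie on opposite sides of 1, and they do not overlap. SRP68 and SRP72, the other heterodimer of the particle, stood together: SRP68 had 13.4 RPKM in the IP and 13.2 RPKM in the input (1.015, 0.879 to 1.18), and SRP72 had 29.8 and 26.4 RPKM (1.13, 1.01 to 1.26). SRP54, the GTPase that binds the signal peptide, had 11.4 RPKM in the IP against 14.9 RPKM in the input, a ratio of 0.763 (0.625 to 0.934). As a list the 6 genes had a median log2 ratio of -0.17, with a range from -1.27 to 0.24. Without SRP19, which shares exon bases with other genes, the remaining 5 had a median of 0.02.

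SRP19, which helps SRP54 assemble onto the RNA, cannot be read as 1 gene in this table. It had 4.34 RPKM in the IP and 8.68 RPKM in the input (269 and 254 reads), a ratio of 0.4996 (0.419 to 0.595). It shares exon bases with AC008575.1, which had 196 IP and 221 input reads, and with the pseudogene ZRSR2P1, which had 83 IP and 10 input reads. These partners stood at 0.418 times (0.343 to 0.509) and 3.92 times (2.03 to 8.47) their input level. The only peak placed in SRP19 lies in exon bases that ZRSR2P1 also holds.

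The RNA core of the particle had far lower ratios than the mRNAs of its proteins. The 7SL genes RN7SL1 and RN7SL2 had 7270 and 13916 reads in the IP against 140523 and 165992 reads in the input, ratios of 0.0244 (0.0238 to 0.02499) and 0.0395 (0.0389 to 0.0402). Such low ratios were not limited to this particle. RNY1, which is no part of it, was the lowest of all 14057 measured genes, at -5.92 on the log2 scale.

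The 2 subunits of the SRP receptor also stood apart, with reads halved too. SRPRA, the GTPase that docks with SRP54, had 25.1 RPKM in the IP against 15.3 RPKM in the input, a ratio of 1.64 (1.39 to 1.95). SRPRB, the subunit that anchors it in the membrane, had 11.7 RPKM in the IP against 14.0 RPKM in the input, 0.836 times (0.688 to 1.02). These intervals do not overlap. SRPRB shares exon bases with the transferrin gene TF, which was at 82.0 RPKM in the IP and 54.5 RPKM in the input, so part of its reads may belong there.

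In the Sec61 translocon the channel and its partners were near or above their input level as deposited, and the small gamma subunit was far below it. The median log2 ratio of the 5 measured genes was 0.05 (-0.34, beside -0.17 for all genes, when scaled to protein-coding reads). SEC61A1 (chromosome 3), the pore-forming subunit, had 45.3 RPKM in the IP against 34.2 RPKM in the input, a ratio of 1.32 (1.19 to 1.48). SEC63 and SEC62, which help chains enter the channel after translation, had 53.4 and 79.7 RPKM in the IP against 48.1 and 77.1 RPKM in the input, at 1.11 times (1.04 to 1.19) and 1.03 times (0.975 to 1.095). SEC61B, the beta subunit, had 18.8 RPKM in the IP and 20.8 RPKM in the input (0.903, 0.671 to 1.22). SEC61G (chromosome 7, positions 54752250 to 54759974) had 14.9 RPKM in the IP against 46.8 RPKM in the input, from 162 and 240 reads, a ratio of 0.318 (0.259 to 0.390). It was the lowest of all measured members on either scale, and its interval lies below those of the other 4 measured translocon genes. The rarer channel paralog SEC61A2 had 9 and 4 reads.

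The TRAP complex (SSR1 to SSR4), which sits beside the channel and aids the entry of some signal peptides, was spread between these values. SSR1 had 19.8 RPKM in the IP and 17.1 RPKM in the input, at 1.15 times (1.04 to 1.28), and SSR2 had 8.30 and 8.22 RPKM, at 1.01 times (0.829 to 1.23). SSR3 had 9.07 RPKM in the IP against 16.0 RPKM in the input, at 0.566 times (0.473 to 0.677). SSR4, with 62 and 44 reads, was at 0.665 times (0.444 to 1.002), an interval that holds 1. The interval of SSR3 lies below those of SSR1 and SSR2.

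**Figure D2:**
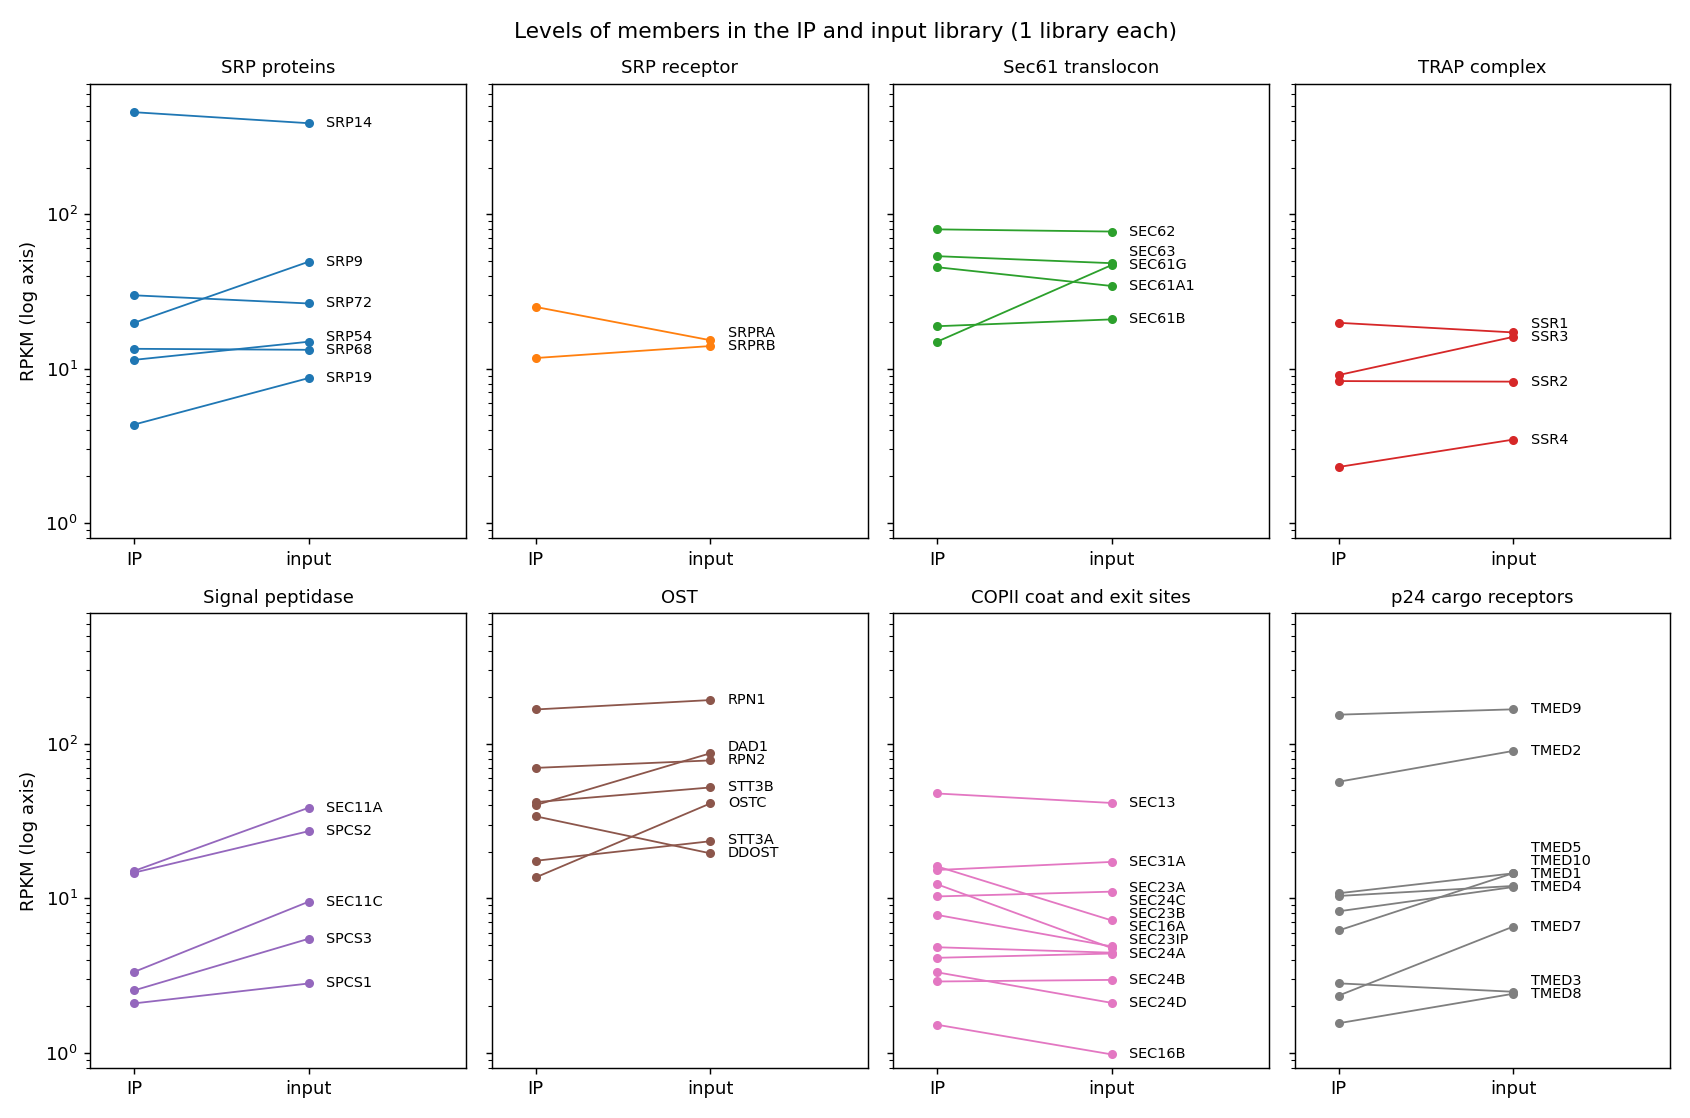
Level of each measured member in RPKM on a log axis, IP on the left and input on the right of each panel, with a line joining the 2 values of a gene (1 library each; SEC22 and SEC14-like genes are not drawn). In the signal peptidase panel all 5 lines run up towards the input, and in the COPII panel SEC16A and SEC24C run down from 12.3 and 16.1 RPKM in the IP.

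Signal peptidase was the complex with the lowest median, -0.87 on the log2 scale (0.12, beside 1.21 for all genes, when scaled to the same RPKM sum), and all 5 of its genes had a ratio below 1 as deposited. SEC11A and SEC11C are the alternative catalytic subunits. SEC11A had 15.0 RPKM in the IP against 38.6 RPKM in the input (487 and 590 reads), a ratio of 0.389 (0.345 to 0.440). SEC11C had 3.34 RPKM in the IP against 9.51 RPKM in the input, a ratio of 0.351 (0.260 to 0.472). The intervals of these paralogs overlap. The accessory subunits SPCS2 and SPCS3 had 14.7 and 2.53 RPKM in the IP against 27.2 and 5.47 RPKM in the input, at 0.539 times (0.449 to 0.647) and 0.463 times (0.349 to 0.614). SPCS1, with 63 IP and 40 input reads, was at 0.743 times (0.492 to 1.13), and its interval alone of the 5 holds 1.

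Of the 7 OST genes, 6 had an interval wholly below 1 as deposited, 85.7% against 18.6% of all genes and 20.5% of protein-coding genes. DDOST lay wholly above 1, and RPN2 held 1 with reads halved. The median log2 ratio of the 7 was -0.31 (0.93, beside 1.21 for all genes, when scaled to the same RPKM sum). OSTC, a small membrane subunit that links the complex to the translocon, had 13.6 RPKM in the IP against 41.1 RPKM in the input (130 and 185 reads), a ratio of 0.331 (0.263 to 0.417). DAD1, another small membrane subunit, had 40.1 RPKM in the IP against 86.9 RPKM in the input, at 0.461 times (0.374 to 0.570). The catalytic paralogs STT3A and STT3B had 17.5 and 41.9 RPKM in the IP against 23.4 and 52.2 RPKM in the input. Their ratios, 0.747 (0.665 to 0.839) and 0.803 (0.732 to 0.882), have overlapping intervals. The ribophorins RPN1 and RPN2 had 167 and 69.9 RPKM in the IP against 192 and 78.1 RPKM in the input, at 0.869 times (0.824 to 0.917) and 0.894 times (0.809 to 0.990). DDOST, the subunit also called OST48, had 34.0 RPKM in the IP against 19.6 RPKM in the input, at 1.74 times (1.45 to 2.10). DDOST shares exon bases with PINK1-AS, which had 106 IP and 41 input reads, against 545 and 148 reads for DDOST.

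Among complexes with at least 4 measured genes, the COPII coat and exit site genes had the highest median as deposited. Of the 11, 5 had an interval wholly above 1, 45.5% against 31.4% of all genes and 37.9% of protein-coding genes. Their median log2 ratio was 0.20, which includes SEC16B, a gene that passed only through the IP. This median was close to that of all genes (0.14), and scaled to protein-coding reads it was -0.18, beside -0.17 for all genes. Scaled to the same RPKM sum it was 1.23, below the 1.29 of the Sec61 translocon. SEC16A (chromosome 9, positions 136440096 to 136483759), the large scaffold of ER exit sites, had 12.3 RPKM in the IP against 4.76 RPKM in the input (725 and 132 reads), a ratio of 2.59 (2.15 to 3.14). SEC24C (chromosome 10), a cargo-binding subunit of the inner coat, had 16.1 RPKM in the IP against 7.18 RPKM in the input, a ratio of 2.24 (1.81 to 2.79). These were the only members at least 2-fold higher. SEC24D had 3.32 RPKM in the IP and 2.10 RPKM in the input, at 1.58 times (1.17 to 2.15).

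SEC24A and SEC24B, the remaining paralogs of this group, were near their input level, with 4.12 and 2.89 RPKM in the IP and 4.39 and 2.96 RPKM in the input. Their ratios were 0.938 (0.723 to 1.22) and 0.976 (0.671 to 1.44), and both intervals lie below that of SEC24C (for SEC24B not with reads halved) but overlap that of SEC24D. The intervals of the SEC23 paralogs, which activate the coat GTPase, did not overlap, but they did with reads halved. SEC23B had 7.80 RPKM in the IP against 4.88 RPKM in the input, at 1.60 times (1.19 to 2.18), and SEC23A had 10.3 RPKM against 11.0 RPKM, at 0.931 times (0.802 to 1.08). SEC13 and SEC31A, which build the outer cage, had 47.7 and 15.2 RPKM in the IP against 41.4 and 17.2 RPKM in the input. Their ratios were 1.15 (1.05 to 1.27) and 0.886 (0.789 to 0.997). SEC31A shares exon bases with THAP9-AS1. SEC23IP, which binds SEC23, was at 1.08 times (0.851 to 1.39), and SEC16B at 1.56 times (0.932 to 2.71). SEC16B shares exons with the readthrough gene CRYZL2P-SEC16B, whose 75 IP and 19 input reads nearly equal its own 66 and 20.

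The p24 cargo receptors leaned the other way, with a median log2 ratio of -0.42 over 9 genes (0.69, beside 1.21 for all genes, when scaled to the same RPKM sum). As deposited 7 intervals lay wholly below 1, 77.8% against 18.6% of all genes and 20.5% of protein-coding genes. With reads halved those of TMED8 and TMED9 held 1. TMED7 had 2.34 RPKM in the IP against 6.56 RPKM in the input (56 and 74 reads), a ratio of 0.357 (0.248 to 0.512). Its readthrough gene TMED7-TICAM2, which shares exons with it, had 57 IP and 22 input reads. TMED5 had 6.19 RPKM in the IP against 14.6 RPKM in the input, at 0.425 times (0.366 to 0.494). TMED2 and TMED10, the family members best known as partners in cargo export, had 56.8 and 10.8 RPKM in the IP against 90.0 and 14.5 RPKM in the input. They were at 0.631 times (0.580 to 0.687) and 0.743 times (0.620 to 0.892), and these intervals overlap. TMED9, the most abundant, had 155 RPKM in the IP and 167 RPKM in the input, at 0.923 times (0.870 to 0.981). TMED4 and TMED8 were at 0.696 and 0.644 times, TMED1 at 0.861 times (0.628 to 1.19) and TMED3 at 1.13 times (0.924 to 1.40), the highest of the family.

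The remaining symbols were few and weakly expressed. The SNARE genes SEC22B and SEC22C had 2.89 and 1.39 RPKM in the IP against 3.82 and 1.94 RPKM in the input, at 0.757 times (0.583 to 0.987) and 0.718 times (0.484 to 1.08). SEC14L1, whose family is named for a yeast lipid transfer protein of the Golgi and not for ER translocation, had 4.75 RPKM in the IP and 3.54 RPKM in the input, at 1.34 times (1.07 to 1.70). The 11 pseudogene symbols left out had 0 to 28 reads per library. SRP14P1 to SRP14P4 had 2 to 7 IP reads and at most 1 input read each, against 5519 and 2209 reads for SRP14.

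Genes of the same route that the symbols miss were looked up in 8 lists, of which 71 of 74 listed genes were measured. Their median log2 ratio was -0.10 (order-statistic interval over genes, with no spread between libraries, -0.27 to 0.15). Of these, 1 gene was at least 2-fold higher, 1.41% against 11.3% of all genes and 8.06% of protein-coding genes. Another 4 were lower, 5.63% against 8.25% of all genes and 3.90% of protein-coding genes. The higher one was NOMO2, of a complex that works with the translocon on multipass proteins, at 2.39 times (1.94 to 2.98), although NOMO1, NOMO2 and NOMO3 are near-identical copies between which reads may be split. The lower ones were OST4, a very small OST subunit (0.375, 0.257 to 0.543), MMGT1 and EMC4 of the ER membrane complex (0.172, 0.0660 to 0.400, from 8 and 22 reads and past the limit only through the input, and 0.424, 0.336 to 0.535) and SCFD1, which guides SNARE pairing (0.458, 0.417 to 0.503).

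By list the medians ran from -0.50 for the other OST subunits to 0.34 for the GET pathway of tail-anchored proteins. MLEC was highest in the OST list at 1.35 times. TMEM147 was lowest among translocon partners at 0.517 times (0.333 to 0.805), and the list median was 0.25. The ER membrane complex had a median of -0.38 and EMC9 as its highest gene (1.48, 0.612 to 4.11). In the GET list BAG6 was highest at 1.81 times (1.50 to 2.20) and CAMLG lowest at 0.681 times (0.360 to 1.32). Other COPII and exit site genes had a median of -0.40, from SAR1A, the coat GTPase, at 0.539 times (0.456 to 0.637) to PREB, its exchange factor, at 1.66 times (1.37 to 2.02). COPI coat genes had a median of 0.08, with COPZ1 at 0.692 times (0.567 to 0.847) lowest and COPA at 1.62 times (1.37 to 1.91) highest by log2 ratio. COPG2, with 36 IP and 10 input reads, had a higher plain ratio of 1.70 (0.826 to 3.84). Other cargo receptors had a median of -0.27, with MCFD2 at 0.482 times (0.420 to 0.553) lowest and ERGIC1 at 1.60 times (1.34 to 1.93) highest by log2 ratio. ERGIC2 had a lower plain ratio than MCFD2, 0.460 (0.368 to 0.575). The SNARE list had a median of 0.06 and YKT6 as its highest gene, at 1.66 times (1.20 to 2.34).

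Across the 52 measured members, genes with longer merged exons had higher log2 ratios. Pearson's r between log2 length and log2 ratio was 0.35 and Spearman's rho 0.32, beside 0.15 and 0.16 over all 14057 genes. These are descriptions over genes of the same 2 libraries, with length also in the RPKM. The 5 members of up to 2000 bases had a median log2 ratio of -1.10, against -0.05 for all genes of that length. The 10 members above 2000 and up to 4000 bases had -0.28 (all genes 0.09), the 25 above 4000 and up to 8000 bases -0.07 (0.18), and the 12 longer ones 0.02 (0.34). The shortest were DAD1 (761 bases), SEC61B, OSTC, SEC61G and TMED1, of which 3 were at least 2-fold lower (19.6% of all genes of that length), while SEC11A, SEC11C, TMED5 and TMED7 were as low at 4055 to 9211 bases. For the input level, r was -0.21 over members and -0.26 over all genes.

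**Figure D3:**
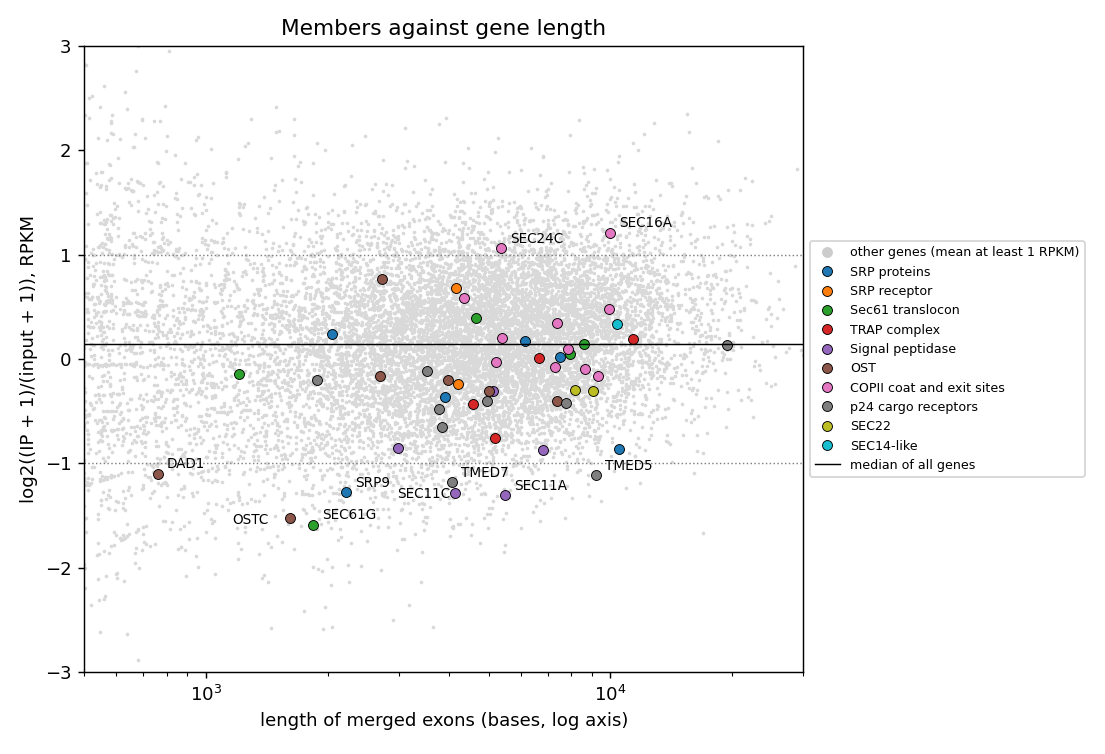
Log2 ratio of IP to input, with 1 RPKM added to each, against the length of merged exons on a log axis; coloured points are the 52 measured members by complex and grey points other genes, those beyond the axis limits not drawn. The solid line is the median of all genes (0.14) and the dotted lines mark 2-fold; the named members are the 8 lower and 2 higher ones, and all members up to 2000 bases lie below the solid line.

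The authors' deposited list of enriched regions held 29 peaks in 10 members, 19.2% of the 52 against 21.5% of all measured genes and 30.03% of the measured protein-coding genes, the class to which all members belong. The COPII and exit site genes held 20 of the 29 peaks, in SEC16A (11), SEC24C (4), SEC24D (3) and SEC23B (2), while signal peptidase, TRAP and the p24 family held 0. By gene this was 4 of 11 for COPII, 36.4%, near the 30.03% of protein-coding genes. Signal peptidase, TRAP and p24 had only 5, 4 and 9 measured genes. A false discovery rate of at most 0.05 was given to 6 SEC16A and 2 SEC24C peaks, but to 0 in SEC24D and SEC23B. SRPRA held 3, SEC61A1 2, and DDOST, SRP14, SRP19 and SEC14L1 1 each. The members with a peak had a median log2 ratio of 0.53 (-0.86 to 1.21) and those without -0.30 (-1.59 to 0.35). Both values come from the same reads as the peaks. In the authors' deposited table the folds of the 29 peaks ran from 2.05 to 7.02 with a median of 2.96 (2.71 over all 7643 peaks), and 15 of them, 51.7%, had a false discovery rate of at most 0.05, against 60.3% of the whole list.

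Positions are those of the deposited list, for which no genome build is named in the sources used here. In SEC16A 6 of the 11 peaks lay in the second merged exon, between 136475524 and 136477099 on chromosome 9, where the authors' deposited table gives folds from 2.14 to 3.90. The others were spread from the fourth to the twenty-sixth of 31 merged exons, and the smallest p among the 11, 0.000608, belonged to the most 3′ of them (fold 3.62). In SEC24C the peaks were centred between 27.3% and 55.1% of the merged exon length from the 5′ end, and in SEC24D between 4.28% and 16.4%. Those of SEC24D had the highest fold among members, 7.02 in the authors' deposited table, but a false discovery rate of 0.0665. SEC23A, SEC24A and SEC24B, whose ratios were near 1, held 0 peaks.

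SEC61A1 held its 2 peaks at the other end of the transcript. They lay in the last merged exon at 128071458 to 128071533 and 128071583 to 128071683 on chromosome 3, and the second ended on the last annotated base of the gene. Their folds in the authors' deposited table were 2.34 and 3.90, beside a ratio of 1.32 for the gene as a whole. The lowest fold of the 29 peaks was 2.05, so any of these peaks would lie above such a gene ratio. The SRP14 peak was the narrowest, 51 bases on chromosome 15 from 40036726 to 40036776, and had the smallest p-value of the 29 in the authors' deposited table, 3.83e-13, at a fold of 2.25. SRP14 itself was at 1.18 times its input level. Of the 3 SRPRA peaks the one at 126266223 to 126266570 on chromosome 11 had a fold of 2.35 and a false discovery rate of 0.000269 in the authors' deposited table. The SEC14L1 peak covered 2540 exon bases and the DDOST peak had a false discovery rate of 0.0771.

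**Figure D4:**
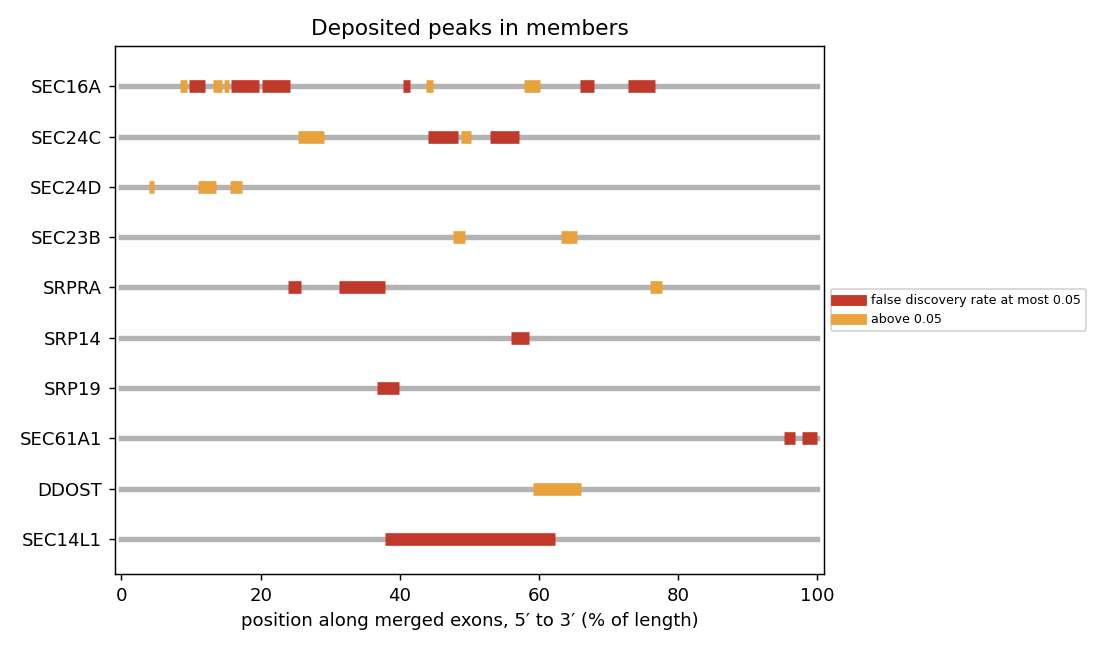
Deposited peaks along the merged exons of the 10 members that hold one, from 5′ to 3′ in percent of length; grey lines are genes, red bars peaks with a false discovery rate of at most 0.05 and orange bars those above it. SEC16A peaks crowd towards the 5′ end, SEC24D peaks are centred between 4.28% and 16.4%, and both SEC61A1 peaks sit at the 3′ end.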

How the data were processed

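Huh-7 IP and input RNA, 1 library each, were grouped by their titles. The submitters' processing notes name Trimmomatic for trimming and STAR 2.5.3a as aligner. A stranded kit and molecular tags of 8 bases were used, per the labels' protocols; use of the tags in counting, counter, peak caller, annotation and genome build were "not given in the sources used here". Gene values were deposited by the authors without a unit in the header. Value times length gave the same total in both columns, so the deposited values are RPKM, and 100% of them were whole multiples of 1 read within 0.01 of a read. These reads gave depth and intervals; count models were not used. The authors' peak list gives, per the file headers, a score, a fold (ratio), a false discovery rate and a p-value per peak, from 1 IP and 1 input.

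The log2 ratio used a pseudocount of 1 RPKM, which understates changes of low genes, and genes averaging 1 RPKM or more. Intervals of ratios are Clopper-Pearson based. They were run on simulated independent reads, the model they assume, and not on reads in which both mates of a pair count. Peaks were placed in the gene with the most exon bases on their strand (at least 1), and ties by name. Merged exons exceed the mature mRNA where isoforms differ. Scaling to protein-coding reads used RefSeq gene classes, which matched 19810 of 25556 symbols. Named are all members 2-fold off, the extremes of each complex and list, every member with a peak, and RN7SL1 and RN7SL2; other members are given by value. Members and lists were chosen with earlier results of these data known, motifs and UPRE sequences after the files were seen. Scripts ran in Python 3.11.15 with scipy 1.17.1, numpy 2.4.6, pandas 2.3.3 and, for plots, matplotlib 3.10.9.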

Additional observations from a re-analysis of the deposited data

How the results depend on the processing

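The counts and medians depend mainly on how the libraries are scaled. Scaling to reads in protein-coding genes moved the median of all genes to -0.17 and that of members to -0.55, the COPII median to -0.18, and gave 0 members 2-fold higher and 13 lower (6.32% and 15.1% of all genes). Scaling to the same RPKM sum moved the median of all genes to 1.21. RN7SL2 and RN7SL1 make up 2.23% and 1.17% of the IP sum and 23.6% and 20.01% of the input sum. Members then had a median of 1.004, with 26 higher and 0 lower (60.6% and 3.20% of all genes). The complex medians became 1.29 (Sec61) and 1.23 (COPII). Those of TRAP (0.86), SRP (1.02), OST (0.93), signal peptidase (0.12) and p24 receptors (0.69), all negative as deposited, turned positive. So did the single genes TMED5 (0.022) and DAD1 (0.14). Members lay below all genes by 0.32 as deposited, 0.38 and 0.21 under these scalings. Centring on the median of all genes left 1 member higher (SEC24C dropped below 2-fold). With reads halved, as for pairs counted by both mates (added after the data were seen), 18 intervals lay below 1 and 11 above (12.8% and 23.8% of all genes); RPN2, SEC22B, SEC31A, SRP54, TMED8, TMED9, SEC14L1 and SRP72 then held 1. Of 12 gene pairs, paralogs except for the receptor subunits SRPRA and SRPRB, 4 had intervals apart. With halved reads 2 did (SEC24C and SEC24A, SRPRA and SRPRB). Without peaks in shared exon bases (also added) 9 members held a peak, and 7 did at a false discovery rate of at most 0.05 (14.6% of all genes). In all, 60 of the 75 alternative values of lists and counts stayed within the limits set for them, but these limits allowed changes of sign. The Sec61 median went from 0.05 to -0.34 under protein-coding scaling. Without shared exon bases that of SRP went from -0.17 to 0.02, and at 5 RPKM or more that of TRAP from -0.21 to 0.01. Some values could not change, such as TRAP without the filter, since all its genes were measured. The count therefore does not measure stability. Protein length was not run as an alternative to gene length. No paired analysis was possible because each group has 1 library.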
